A study of Mus musculus with 4 samples.

Results

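The genes described here are 36 antioxidant, metal-binding and heat shock genes, of 31053 genes in the deposited tables, measured in single mouse mammary gland cells. They were chosen by name, with earlier results of these data known. By role they fall into 11 groups: glutathione synthesis and recycling, glutathione transferases, the thioredoxin and peroxiredoxin system, quinone, carbonyl and heme enzymes, superoxide dismutases and catalase, ferritin, metallothioneins, small heat shock proteins, the Hsp70 system, cytosolic Hsp90 and the mitochondrial chaperonin. All 36 were detected in basal cells, in luminal progenitor cells and in hormone-sensing luminal cells. Levels are counts of unique molecular identifiers (UMIs), 1 for each captured transcript, summed over the cells of a class in a library and scaled to a total of 1000000 (CPM).

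The antioxidant genes are known as targets of NRF2 (Nfe2l2), a transcription factor that KEAP1 marks for degradation until oxidants or electrophiles modify KEAP1, after which NRF2 binds antioxidant response elements. Heat shock genes are known as targets of HSF1, which binds heat shock elements when unfolded protein accumulates, and metallothionein genes of MTF1, which binds metal response elements when free zinc rises. In the mammary gland, contractile basal cells line the ducts on the outside and luminal cells on the inside, the latter comprising progenitors of the milk-producing lineage and cells that carry estrogen and progesterone receptors.

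All 4 libraries came from FVB mice with floxed Tfap2c alleles and a Krt5-CreERT2 transgene, a Cre recombinase driven by a basal keratin promoter and activated by 4OHT (4-hydroxytamoxifen). Daily injections began at 4 weeks of age with corn oil in 2 mice and with 4OHT in the other 2. The labels give their length as 5 days in one field and as a week in another. The fourth mammary glands were taken at 9 weeks and their cells sequenced with 10x Genomics 3′ chemistry, 1 library a mouse. Corn oil animals carry the same alleles and transgene. Values listed in a run below are in the order corn oil 1, corn oil 2, 4OHT 1, 4OHT 2.

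The libraries held 3546 to 5545 cells and 17351950 to 22017878 UMIs, with a median of 3055 to 5299.5 UMIs a cell. Of 18223 cells, 391 had fewer than 1000 UMIs and were left out. Classes were set from keratin, Acta2 and luminal marker counts, none of them a member: 7028 cells were basal, 5629 luminal progenitor and 1168 hormone-sensing luminal, and 4007 mixed or low-keratin cells were left out. The marker lists followed the classes. The summed basal list ran from 2928 to 3925 CPM in basal cells and stayed below 92 CPM in the luminal classes; Trp63, a basal transcription factor, was at 82.5, 69.6, 64.5 and 70.7 CPM in basal cells and 1.24, 1.32, 2.02 and 2.09 CPM in progenitors. The luminal progenitor list ran from 5059 to 7166 CPM in progenitors, with 980 to 2332 CPM in basal cells that was nearly all Lcn2, and the hormone-sensing list from 1165 to 2234 CPM in its class. Tfap2c, the floxed gene, was at 389, 285, 285 and 325 CPM in basal cells and did not pass between treatments in edgeR's quasi-likelihood test (log2 difference −0.08, SE 0.25, adjusted p = 1.00). A lower Tfap2c level was thus not detected with 4OHT, but a moderate decrease was not excluded. Over the fits without 1 library the log2 difference ran from −0.28 to 0.10. A 3′ count outside the deleted part would not show a decrease. The libraries are called 4OHT-labelled below.

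Promoter windows from RefSeq (build GRCm38.p6, 250 bases before to 50 after the annotated start) were found for 28 of the 36 members, 38 windows in all. Those of Mt1 (chr8:94178839-94179138, plus strand) and Mt2 (chr8:94172368-94172667, plus strand) are shown because these genes differed strongly between basal and progenitor cells and varied together from cell to cell. Capitals mark matches to TGCACNC or TGCGCNC, a form of the metal response element, on either strand.
Mt1: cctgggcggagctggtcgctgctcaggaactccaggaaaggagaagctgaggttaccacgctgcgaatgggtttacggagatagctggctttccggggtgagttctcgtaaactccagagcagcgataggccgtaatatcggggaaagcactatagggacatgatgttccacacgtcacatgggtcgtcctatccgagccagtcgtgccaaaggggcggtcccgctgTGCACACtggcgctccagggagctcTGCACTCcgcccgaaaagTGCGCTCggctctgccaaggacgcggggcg
Mt2: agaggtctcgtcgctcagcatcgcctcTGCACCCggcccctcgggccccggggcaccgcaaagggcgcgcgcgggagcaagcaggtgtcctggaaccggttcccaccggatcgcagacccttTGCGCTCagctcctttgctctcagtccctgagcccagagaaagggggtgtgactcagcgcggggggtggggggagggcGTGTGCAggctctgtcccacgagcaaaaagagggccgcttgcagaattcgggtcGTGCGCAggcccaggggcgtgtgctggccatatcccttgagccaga
The Mt1 window held 3 matches and the Mt2 window 4, and compared position by position the windows had 70 of 300 bases in common. The windows of Gclm (chr3:122245307-122245606, plus strand) and Mgst1 (chr6:138140277-138140576, plus strand) are shown because these genes were among the antioxidant members with the lowest p in the treatment comparison in basal cells. Capitals mark TGACNNNGC, the core of the antioxidant response element, on either strand.
Gclm: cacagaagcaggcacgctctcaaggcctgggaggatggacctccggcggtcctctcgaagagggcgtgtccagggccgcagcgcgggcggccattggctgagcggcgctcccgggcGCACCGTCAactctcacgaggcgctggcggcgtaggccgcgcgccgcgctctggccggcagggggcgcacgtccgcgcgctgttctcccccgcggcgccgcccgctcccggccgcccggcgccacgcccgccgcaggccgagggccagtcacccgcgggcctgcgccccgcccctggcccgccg
Mgst1: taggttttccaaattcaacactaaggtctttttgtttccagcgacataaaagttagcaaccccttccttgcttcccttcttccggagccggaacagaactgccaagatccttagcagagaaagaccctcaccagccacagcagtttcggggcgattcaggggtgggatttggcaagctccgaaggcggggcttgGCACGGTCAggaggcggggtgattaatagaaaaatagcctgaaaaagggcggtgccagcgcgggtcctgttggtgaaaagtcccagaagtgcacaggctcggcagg
Each held 1 match; a second annotated Mgst1 window held none. The windows of Hspa1a (chr17:34972107-34972406, minus strand) and Hspe1 (chr1:55087898-55088197, plus strand) are shown for the heat shock element, with capitals on GAANNTTC in Hspa1a and on a longer form, GAANNTTC followed by any 2 bases and GAA, in Hspe1, on either strand.
Hspa1a: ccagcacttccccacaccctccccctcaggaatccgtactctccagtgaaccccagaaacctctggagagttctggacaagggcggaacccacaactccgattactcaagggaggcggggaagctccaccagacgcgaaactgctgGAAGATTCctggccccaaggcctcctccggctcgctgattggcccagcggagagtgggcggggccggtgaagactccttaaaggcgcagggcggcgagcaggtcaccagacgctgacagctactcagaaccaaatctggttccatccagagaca
Hspe1: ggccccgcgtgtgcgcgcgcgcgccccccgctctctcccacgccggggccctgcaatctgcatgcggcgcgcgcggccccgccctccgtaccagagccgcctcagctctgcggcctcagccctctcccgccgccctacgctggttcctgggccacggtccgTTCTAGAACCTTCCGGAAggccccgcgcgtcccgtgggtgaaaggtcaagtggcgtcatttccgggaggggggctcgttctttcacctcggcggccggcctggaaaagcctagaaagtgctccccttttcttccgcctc
Hspa1a held 1 match, and its window was identical to that of its neighbour Hspa1b at 296 of 300 bases. The Hspe1 window held 2 overlapping matches and overlaps that of Hspd1, which is transcribed away from it.

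Across members, GAANNTTC was found in 34.2% of the windows (12 genes: the heat shock genes Hspd1, Hspe1, Dnaja1, Hspb8, Hspb1, Hsph1, Bag3, Hspa1a and Hspa1b and the antioxidant genes Mgst1, Sod1 and Cbr3), against 7.86% of 32851 promoter windows of the same length. The longer form, which contains the shorter motif, was found in 10.5% (4 windows of 3 genes, Hspd1, Hspe1 and Hsph1) against 0.603%. The Hspd1 and Hspe1 windows overlap and hold the same matches, and so do the overlapping windows of Hsph1. Such shares of windows therefore count some sites more than once. TGACNNNGC was found in 28.9% of the members' windows against 12.4%. Its 10 genes were the antioxidant genes Srxn1, Gclm, Prdx1, Mgst1, Txnrd1, Sod1 and G6pdx, and Hsph1, Dnajb1 and Mt2. TGCACNC or TGCGCNC was found in 36.8% against 25.7%. Its 10 genes were Mt1, Mt2, Hspd1, Hspe1, Srxn1, Gstm1, Gclm, Dnaja1, Dnajb1 and G6pdx, so it was not particular to the metallothioneins. The Gclm window held 3 such matches, as did that of Mt1. Both strands were searched. These matches describe the letters in the windows and do not show binding.

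Members were called as different between cell classes as follows. Classes were compared within libraries with edgeR's quasi-likelihood test, the library as a block, over 11135 genes, and a member passed at an adjusted p under 0.05. Between basal and luminal progenitor cells 10 members were higher in basal cells (background 29.5% of all genes) and 12 lower (26.6%), so the share that passed in either direction was close to the 56.1% of all genes. Between basal and hormone-sensing cells 21 members were higher in basal cells (background 32.4%) and 5 lower (27.3%; 59.8% in either direction). Between progenitors and hormone-sensing cells 20 were higher in progenitors (background 24.6%) and 7 lower (21.9%; 46.4% in either direction). The members' median log2 difference was 0.02, 0.77 and 0.55 in the 3 comparisons, against 0.04, 0.08 and 0.02 over all genes tested. Normalization placed the fitted basal-to-progenitor differences 0.27 below, and the progenitor-to-hormone-sensing ones 0.25 above, the plain CPM ratios on the log2 scale. Small differences turn on this: Txn1, Ftl1 and Hspa1b passed as lower in basal cells although their CPM was higher there than in progenitors in 2 of 4 libraries.

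**Figure D1:**
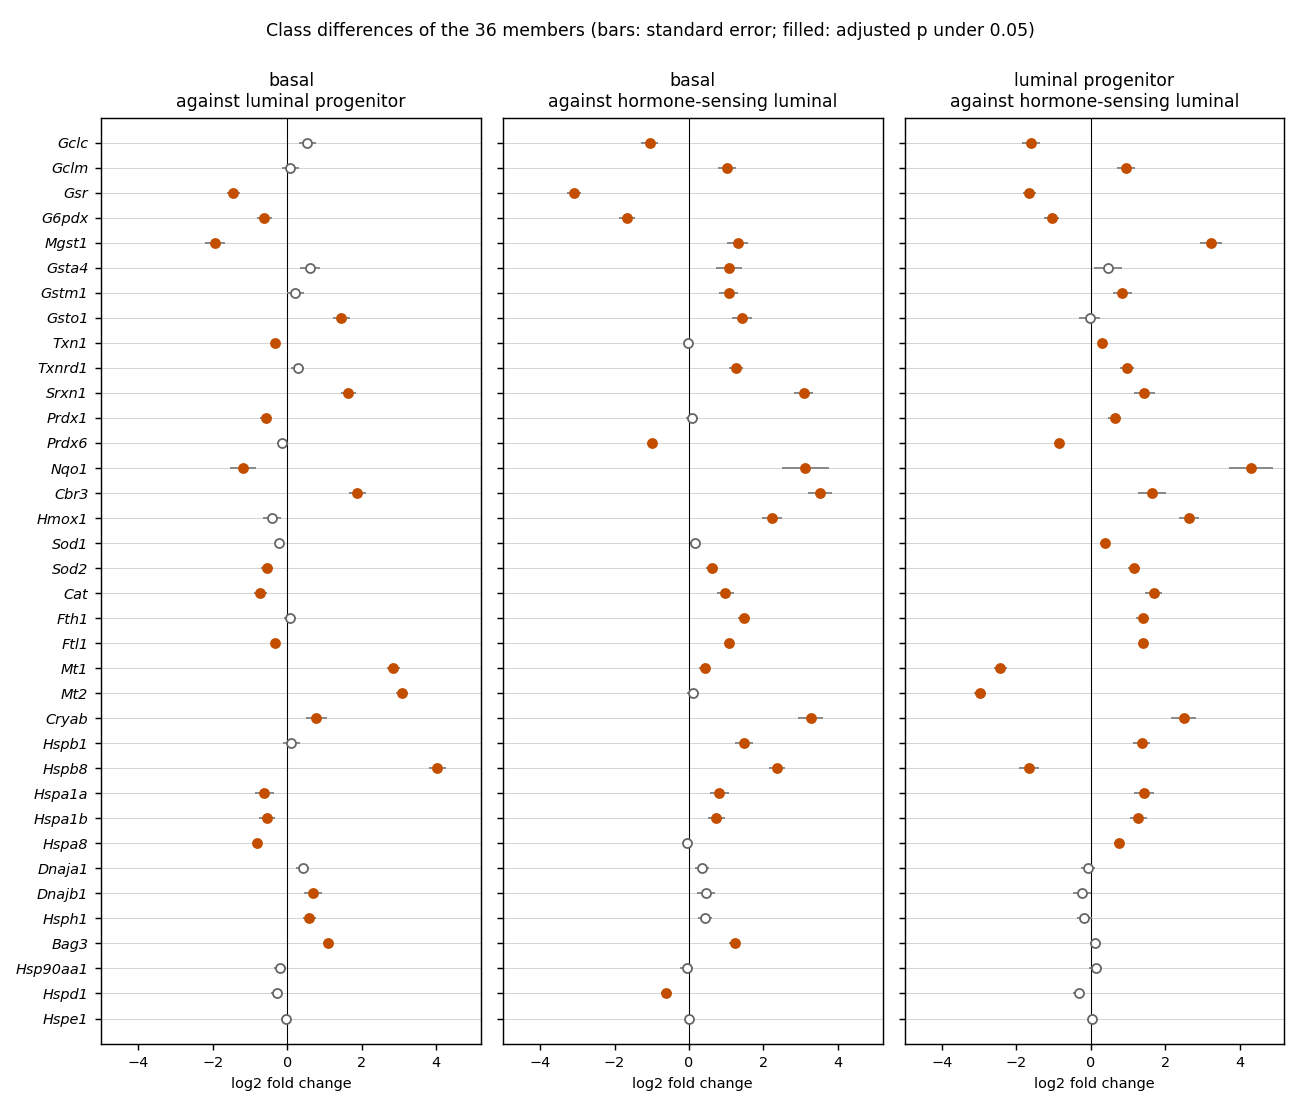
Fitted log2 differences of the 36 members between classes (horizontal axis; points with SE bars, filled where the adjusted p was under 0.05), ordered by role. Mt1, Mt2 and Hspb8 lie farthest toward basal cells in the basal-to-progenitor comparison (2.85, 3.08 and 4.03), and Nqo1 farthest toward progenitors in the progenitor-to-hormone-sensing one (4.32).

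The metallothioneins were the members that most clearly set luminal progenitors apart, at low levels there and high levels in both other classes. Mt1 (chr8:94179082-94180327, plus strand), a small cysteine-rich protein that binds zinc and copper, was at 4807, 8630.3, 6753 and 10084 CPM in basal cells, 544, 1216, 933 and 857 CPM in progenitors and 3879, 6886, 7268 and 4303 CPM in hormone-sensing cells. Mt2 (chr8:94172664-94173568, plus strand), its close relative, was at 3656, 5029, 3889 and 4762 CPM in basal cells, 255, 621, 471 and 439.7 CPM in progenitors and 2596, 4720.4, 5743 and 3417 CPM in hormone-sensing cells. For both genes the highest progenitor library lay well below the lowest library of either other class. The basal-to-progenitor log2 difference was 2.85, SE 0.17, adjusted p = 8.63e-10 for Mt1 and 3.08, SE 0.17, adjusted p = 2.31e-10 for Mt2, and the progenitor-to-hormone-sensing difference was −2.43, SE 0.17, adjusted p = 1.39e-08 and −2.97, SE 0.17, adjusted p = 1.58e-09. Basal and hormone-sensing cells overlapped: the log2 difference was 0.42, SE 0.16, adjusted p = 0.0348 for Mt1 and 0.11, SE 0.15, adjusted p = 0.56 for Mt2, and the Mt1 call was lost without corn oil 1 (adjusted p = 0.137) or 4OHT 2 (adjusted p = 0.638). The longest run of bases the 2 transcripts share is 20, so 3′ reads can be assigned to one or the other.

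Small heat shock proteins, which hold unfolded proteins without using ATP, were highest in basal cells for 2 of 3 members. Hspb8 (chr5:116408491-116422864, minus strand), which works with the co-chaperone Bag3 in clearing damaged filament proteins, was at 85.5, 102, 90.4 and 92.6 CPM in basal cells, 5.92, 2.15, 5.24 and 5.47 CPM in progenitors and 15.4, 12.9, 19.96 and 23.2 CPM in hormone-sensing cells. The basal libraries were close to each other and far above every luminal library (log2 difference 4.03, SE 0.23, adjusted p = 3.83e-10 against progenitors; log2 difference 2.36, SE 0.23, adjusted p = 1.83e-07 against hormone-sensing cells), and progenitors were the lowest class. Trp63, given above, was also above 0 in progenitors, and the part of free RNA in such low values was not tested. Cryab (chr9:50751325-50756636, plus strand), alpha-B crystallin, was at 209, 153, 281 and 256 CPM in basal cells, 96.2, 137, 103 and 81.3 CPM in progenitors and 6.17, 9.41, 27.0 and 48.8 CPM in hormone-sensing cells. No hormone-sensing library reached the lowest progenitor one (log2 difference 2.50, SE 0.34, adjusted p = 2.08e-05), and basal cells stood higher still (log2 difference 3.27, SE 0.34, adjusted p = 5.06e-07). Its smaller basal-to-progenitor difference (log2 difference 0.78, SE 0.28, adjusted p = 0.0278) did not pass in 3 of the 4 fits that left out 1 library (adjusted p = 0.057 without corn oil 1, 0.141 without 4OHT 1 and 0.0632 without 4OHT 2). Hspb1, the abundant Hsp27, ranged from 4632 to 8728 CPM in basal and progenitor cells, which overlapped (log2 difference 0.11, SE 0.23, adjusted p = 0.704), and from 1371 to 4193 CPM in hormone-sensing cells, below both.

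Of the 7 members of the Hsp70 system, 3 were called higher in basal cells than in progenitors and 3 lower (29.5% and 26.6% of all genes), and 2 of the lower calls, Hspa1a and Hspa1b, rested on the class rule. Bag3, a nucleotide exchange factor for Hsp70, was at 106, 107, 129.9 and 89.4 CPM in basal cells, 40.7, 49.2, 37.0 and 39.8 CPM in progenitors and 50.1, 40.0, 39.9 and 51.6 CPM in hormone-sensing cells. It was higher in every basal library than in any luminal one, by a log2 difference of 1.11, SE 0.14, adjusted p = 3.53e-06 from progenitors and 1.22, SE 0.15, adjusted p = 2.49e-06 from hormone-sensing cells. Dnajb1, a J-domain co-chaperone, ran from 314 to 523 CPM in basal cells and 141 to 338 CPM in progenitors (log2 difference 0.69, SE 0.24, adjusted p = 0.0238). Hsph1, an Hsp110 exchange factor, ran from 59.3 to 135 CPM and 38.3 to 59.3 CPM (log2 difference 0.60, SE 0.18, adjusted p = 0.0115). Dnaja1, another J-domain protein, ran from 149 to 283 CPM and 116 to 165 CPM and did not pass (log2 difference 0.42, SE 0.18, adjusted p = 0.06). It was higher in basal cells in each of the 4 libraries and passed under the stricter class rule given below (log2 difference 0.70, adjusted p = 0.00296). The Dnajb1 call was lost without 4OHT 1 (adjusted p = 0.126) or corn oil 2 (0.0542) and the Hsph1 call without 4OHT 1 (0.116) or corn oil 1 (0.105).

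Hspa8, the constitutive Hsp70 of the cytosol, was at 1690.2, 839, 1774 and 538 CPM in basal cells and 3315, 1165, 2121 and 741 CPM in progenitors. In each library progenitors exceeded basal cells (log2 difference −0.81, SE 0.13, adjusted p = 6.03e-05), although the range over libraries was wider than the difference between the classes. Inducible Hspa1a, at 1403, 1564, 1786 and 1089 CPM in basal cells and 3061, 1166, 1969.7 and 1609.8 CPM in progenitors, was lower in basal cells (log2 difference −0.62, SE 0.25, adjusted p = 0.0471). Hspa1b, at 206, 135, 225 and 105 CPM and 372, 134, 219 and 124 CPM, was called likewise (log2 difference −0.54, SE 0.22, adjusted p = 0.043). The groups overlapped for both genes. Under the stricter class rule (keratin counts of at least 10 and over 10 to 1) both were near 0, with log2 differences of −0.010 for Hspa1a (adjusted p = 0.98) and 0.010 for Hspa1b (0.975). Both calls were also lost without corn oil 1 (adjusted p = 0.287 and 0.237). Hspa1a was called in none of the fits without 4OHT 1 or 4OHT 2 either (adjusted p = 0.0561 and 0.0789). Both exceeded hormone-sensing cells in progenitors (log2 difference 1.43, SE 0.26, adjusted p = 0.000269 and 1.28, SE 0.23, adjusted p = 0.000258). The Hspa1a and Hspa1b transcripts share runs of up to 638 bases, but no more than 10 bases within their last 400. Cytosolic Hsp90aa1, at 676 to 1493 CPM over the 12 sums, passed in no class comparison (log2 differences −0.19, −0.07 and 0.13), nor did Hspe1, the small ring of the mitochondrial chaperonin (−0.03, 0.01 and 0.04). Hspd1, the large ring, was lower in basal cells, at 133 to 226 CPM, than in hormone-sensing cells, at 156 to 407 CPM (log2 difference −0.61, SE 0.15, adjusted p = 0.00252).

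Glutathione is made by the ligase that Gclc (catalytic) and Gclm (modifier) encode, and is kept reduced by Gsr with NADPH that G6pdx supplies. Gsr (chr8:33652523-33698163, plus strand) was at 13.3, 8.72, 24.4 and 4.71 CPM in basal cells, 36.7, 22.5, 31.5 and 15.8 CPM in progenitors and 131, 82.4, 139.7 and 53.5 CPM in hormone-sensing cells. Within every library hormone-sensing cells were highest and basal cells lowest, with log2 differences of −3.10, SE 0.19, adjusted p = 1.11e-09 between basal and hormone-sensing cells and −1.44, SE 0.19, adjusted p = 6.23e-06 between basal cells and progenitors. G6pdx was highest in hormone-sensing cells in every library and lower in basal cells than in progenitors in 3 of 4 (log2 difference −1.66, SE 0.21, adjusted p = 4.41e-06 and −0.62, SE 0.20, adjusted p = 0.0137), at 6.83 to 9.27 CPM in basal, 8.81 to 11.4 CPM in progenitor and 16.7 to 33.5 CPM in hormone-sensing cells. Gclc (chr9:77754535-77794485, plus strand) was at 41.0, 35.6, 19.4 and 20.9 CPM in basal cells, 13.6, 27.8, 13.6 and 12.2 CPM in progenitors and 68.6, 40.6, 50.2 and 71.3 CPM in hormone-sensing cells. It was highest in hormone-sensing cells, with log2 differences of −1.59, SE 0.24, adjusted p = 5.37e-05 for progenitors minus hormone-sensing cells and −1.06, SE 0.23, adjusted p = 0.000958 for basal minus hormone-sensing cells, and basal cells and progenitors did not pass the test (log2 difference 0.53, SE 0.23, adjusted p = 0.0583). Gclm went the other way, lower in hormone-sensing cells, at 75.3 to 159 CPM, than in basal cells (log2 difference 1.03, SE 0.24, adjusted p = 0.00155) or progenitors (log2 difference 0.94, SE 0.24, adjusted p = 0.00429).

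All 4 glutathione transferases were called higher in basal than in hormone-sensing cells (32.4% of all genes were), Gsta4 less firmly than the others. Mgst1 (chr6:138140316-138156755, plus strand), a membrane-bound transferase of microsomes and mitochondria, was at 211, 211, 100.05 and 108 CPM in basal cells, 539, 461, 409 and 566 CPM in progenitors and 34.7, 47.1, 79.2 and 82.7 CPM in hormone-sensing cells. Each class occupied its own range, with progenitors highest (log2 difference 3.24, SE 0.29, adjusted p = 2.09e-07 over hormone-sensing cells; log2 difference −1.93, SE 0.26, adjusted p = 1.13e-05 for basal minus progenitor). Cytosolic Gsto1 was the reverse between basal cells and progenitors, at 34.7 to 67.0 CPM in basal cells and 11.3 to 17.6 CPM in progenitors (log2 difference 1.45, SE 0.23, adjusted p = 5.77e-05). Gstm1, at 36.1 to 90.2 CPM in basal cells, and Gsta4, at 8.96 to 18.4 CPM, did not pass between these classes (log2 difference 0.22, SE 0.23, adjusted p = 0.448 and 0.60, SE 0.27, adjusted p = 0.0701). Against hormone-sensing cells their basal log2 differences were 1.06, SE 0.26, adjusted p = 0.00236 and 1.07, SE 0.35, adjusted p = 0.0149. The Gsta4 call was lost under the stricter class rule (log2 difference 0.49, adjusted p = 0.335) and without the cells with most UMIs (log2 difference 0.73, adjusted p = 0.143). Hormone-sensing cells of 4OHT 1 held 0 Gsta4 UMIs. The log2 difference of CPM was 3.38 in that library, against 0.82 in corn oil 1, 0.63 in corn oil 2 and 0.61 in 4OHT 2.

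Among the quinone, carbonyl and heme enzymes, all 3 members were lowest in hormone-sensing cells. Nqo1 (chr8:107388225-107403206, minus strand), which reduces quinones to hydroquinones, was at 17.2, 25.5, 9.43 and 10.5 CPM in basal cells, 65.9, 16.0, 30.7 and 15.9 CPM in progenitors and 3.08, 0, 1.29 and 2.36 CPM in hormone-sensing cells. The hormone-sensing values rest on 12 UMIs, and the 0 in corn oil 2 allows up to 1.76 CPM (3 UMIs). Nqo1 had the widest class difference of any member, a log2 difference of 4.32, SE 0.59, adjusted p = 1.95e-05 between progenitors and hormone-sensing cells, while its basal-to-progenitor difference (log2 difference −1.19, SE 0.35, adjusted p = 0.00863) was lost without corn oil 1 (adjusted p = 0.11) or 4OHT 1 (0.0584), the libraries with the highest progenitor levels.

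Cbr3 (chr16:93683215-93690990, plus strand), a carbonyl reductase, was at 48.6, 79.5, 35.2 and 29.4 CPM in basal cells, 12.7, 13.7, 13.8 and 3.38 CPM in progenitors and 4.63, 3.53, 3.86 and 3.54 CPM in hormone-sensing cells. Every basal library exceeded every luminal one (log2 difference 1.88, SE 0.23, adjusted p = 3.59e-06 against progenitors; log2 difference 3.52, SE 0.33, adjusted p = 1.52e-07 against hormone-sensing cells, where the 4 libraries held 27 UMIs). Hmox1 (chr8:75093621-75100589, plus strand), which degrades heme and releases iron, was at 1343, 1580.3, 834 and 775 CPM in basal cells, 1117, 1717, 1372 and 709.7 CPM in progenitors and 198, 231, 139.7 and 348 CPM in hormone-sensing cells. Basal cells and progenitors overlapped (log2 difference −0.41, SE 0.25, adjusted p = 0.172) and both lay far above hormone-sensing cells (log2 difference 2.23, SE 0.26, adjusted p = 2.1e-06 and 2.64, SE 0.27, adjusted p = 8.84e-07).

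Ferritin, which stores iron, followed Hmox1 in being lowest in hormone-sensing cells. Fth1, the heavy chain, was at 6104, 8421, 4194 and 5149 CPM in basal cells, 5014, 4772, 4905 and 3793 CPM in progenitors and 1825, 1902, 2412 and 2181 CPM in hormone-sensing cells. Hormone-sensing libraries lay below all others (log2 difference 1.48, SE 0.17, adjusted p = 1.67e-06 for basal and 1.40, SE 0.17, adjusted p = 5.74e-06 for progenitors, against hormone-sensing cells), and basal cells and progenitors did not pass (log2 difference 0.08, SE 0.17, adjusted p = 0.708). The light chain Ftl1 was at 1601 to 2038 CPM in hormone-sensing cells, below its range in basal cells, 3205 to 4910.0 CPM (log2 difference 1.06, SE 0.11, adjusted p = 5.14e-07), and in progenitors, 3338 to 5519 CPM (log2 difference 1.40, SE 0.11, adjusted p = 5.73e-08).

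In the thioredoxin and peroxiredoxin system, Srxn1 was the member that differed most. Srxn1 (chr2:152105516-152111376, plus strand), which restores over-oxidized peroxiredoxins, was at 74.6, 91.8, 47.2 and 84.1 CPM in basal cells, 16.1, 30.6, 17.5 and 15.0 CPM in progenitors and 4.63, 8.24, 5.15 and 14.6 CPM in hormone-sensing cells. The classes were ordered the same way in all 4 libraries (log2 difference 1.64, SE 0.20, adjusted p = 3.15e-06 for basal minus progenitor; log2 difference 1.44, SE 0.27, adjusted p = 0.000425 for progenitor minus hormone-sensing). Txnrd1, which reduces thioredoxin, was higher in basal cells (log2 difference 1.26, SE 0.19, adjusted p = 2.77e-05) and progenitors (log2 difference 0.98, SE 0.19, adjusted p = 0.000497) than in hormone-sensing cells, and Prdx6, a peroxiredoxin that draws on glutathione, was lower in both (log2 difference −1.002, SE 0.13, adjusted p = 8.34e-06 and −0.85, SE 0.13, adjusted p = 7.84e-05). Prdx1, a peroxiredoxin reduced by thioredoxin, ran from 584 to 1030.2 CPM in basal cells, 796 to 1183 CPM in progenitors and 538 to 985 CPM in hormone-sensing cells (log2 difference −0.56, SE 0.16, adjusted p = 0.00851 for basal minus progenitor; log2 difference 0.64, SE 0.17, adjusted p = 0.00485 for progenitor minus hormone-sensing). Txn1, thioredoxin itself, spanned 432 to 611 CPM over all 12 library and class sums.

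Of the superoxide dismutases and catalase, Cat differed most between classes and Sod1 least. Cat, which splits hydrogen peroxide in peroxisomes, was at 21.4, 24.0, 21.9 and 20.5 CPM in basal cells, 35.4, 32.2, 25.4 and 28.0 CPM in progenitors and 14.6, 4.71, 10.9 and 14.2 CPM in hormone-sensing cells. Progenitors were highest in every library (log2 difference −0.72, SE 0.18, adjusted p = 0.00238 for basal minus progenitor; log2 difference 1.69, SE 0.22, adjusted p = 1.34e-05 for progenitor minus hormone-sensing). Mitochondrial Sod2 had its lowest values in hormone-sensing cells, at 77.6 to 122 CPM (log2 difference 0.62, SE 0.17, adjusted p = 0.00542 in basal cells; log2 difference 1.16, SE 0.17, adjusted p = 4.05e-05 in progenitors). Cytosolic Sod1 lay between 58.6 and 82.0 CPM in all 12 sums and passed only for progenitors against hormone-sensing cells (log2 difference 0.37, SE 0.13, adjusted p = 0.0249), a call lost without any of corn oil 1, 4OHT 1 and 4OHT 2 (adjusted p = 0.0606, 0.113 and 0.131).

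**Figure D2:**
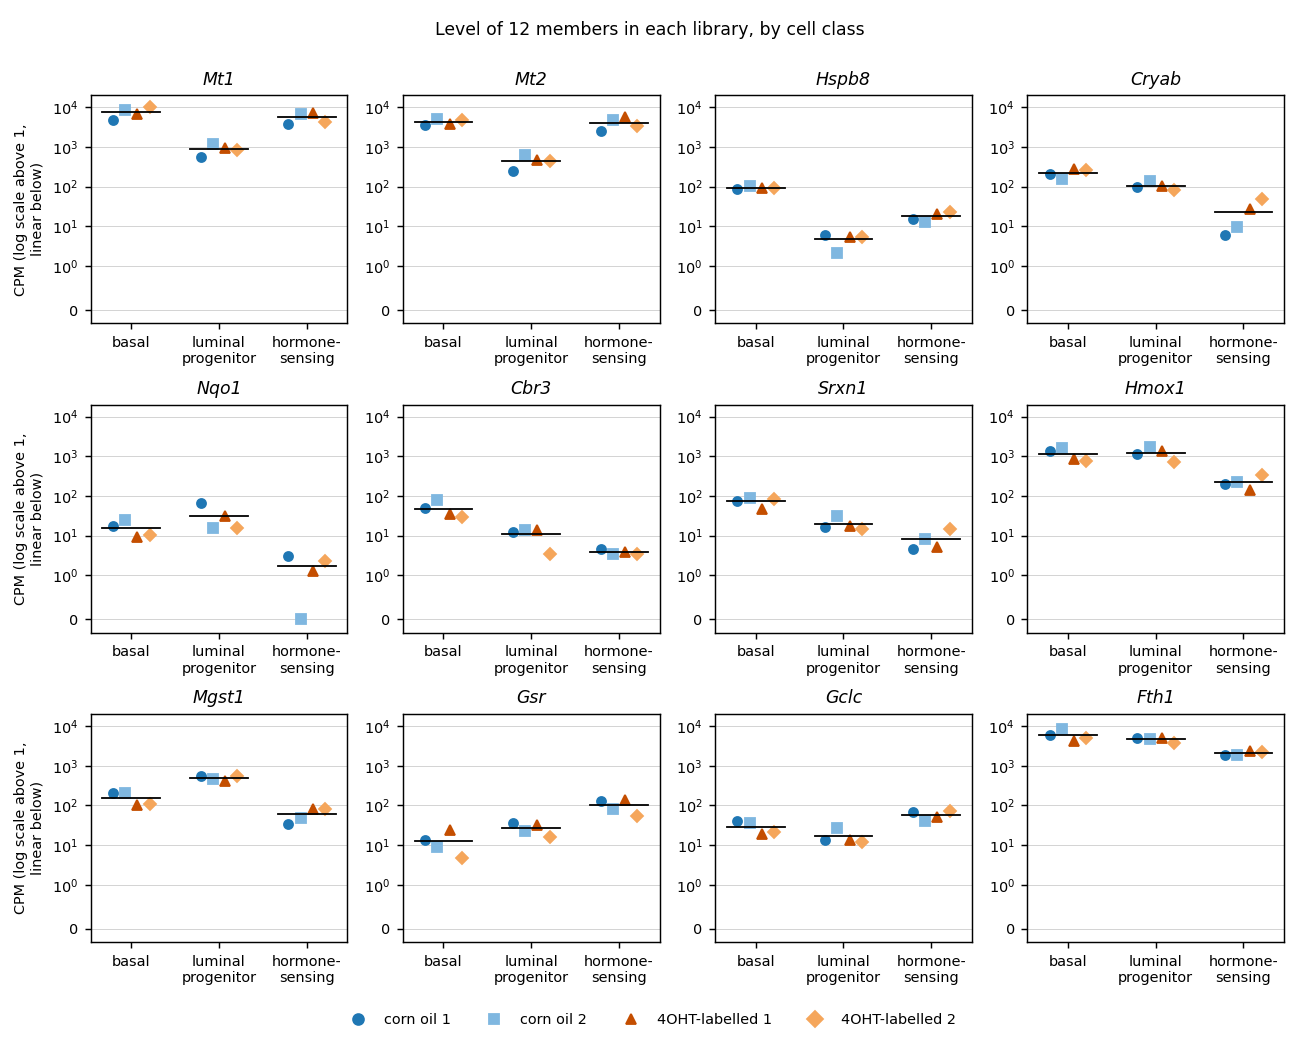
CPM of 12 members in each library (points) by cell class, on a symmetric log axis, with a black line at the mean of the 4 libraries. Mt1 and Mt2 are lowest in luminal progenitors, Nqo1, Cbr3 and Hmox1 are lowest in hormone-sensing cells, and Gsr is highest there (53.5 to 139.7 CPM against 4.71 to 24.4 CPM in basal cells).

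Leaving out 1 library at a time moved the number of members lower in basal cells than in progenitors between 7 and 13, the lowest without corn oil 1, and the number higher between 7 and 10. In the other class comparisons the counts moved by less than 1.5 times. Besides the calls given above, Txn1 was lost between basal cells and progenitors without corn oil 1 (adjusted p = 0.0622) or 4OHT 1 (0.0845), Ftl1 without 4OHT 1 (0.0529), and Sod2 without corn oil 1 (0.0752) or 4OHT 2 (0.0555). Between basal and hormone-sensing cells Hspa1a and Hspa1b, both higher in basal cells, were lost without corn oil 2 (adjusted p = 0.0963 and 0.0888). Between progenitors and hormone-sensing cells Gstm1 was lost without corn oil 1 (adjusted p = 0.125), and Txn1 without corn oil 1, corn oil 2 or 4OHT 1 (adjusted p = 0.164, 0.106 and 0.114).

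Genes of the same pathways outside the member list were compared in the same fit. Of 18 other NRF2 pathway genes tested, 7 were higher and 6 lower in basal cells than in progenitors (29.5% and 26.6% of all genes), counts close to the background. Against hormone-sensing cells 11 were higher and 6 lower (32.4% and 27.3% of all genes). Nfe2l2 itself, the NRF2 gene, was at 199, 170.1, 210.4 and 126 CPM in basal cells, 82.6, 63.9, 91.4 and 46.0 CPM in progenitors and 33.2, 38.8, 53.4 and 37.8 CPM in hormone-sensing cells. Every basal library exceeded every progenitor library and these in turn lay mostly above hormone-sensing ones (log2 difference 1.06, SE 0.14, adjusted p = 8.99e-06 for basal minus progenitor; log2 difference 1.00, SE 0.16, adjusted p = 7.97e-05 for progenitor minus hormone-sensing). Ugdh, which makes UDP-glucuronate, was at 87.4, 65.5, 54.9 and 57.8 CPM in basal cells and 10.0, 8.59, 15.5 and 8.53 CPM in progenitors (log2 difference 2.39, SE 0.23, adjusted p = 2.43e-07). The NADPH-linked enzymes Me1 and Taldo1 were instead lower in basal cells (log2 difference −2.41, SE 0.16, adjusted p = 2.94e-09 and −2.01, SE 0.20, adjusted p = 3.68e-07): Taldo1 ran from 98.4 to 169 CPM there and from 329 to 487 CPM in progenitors.

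Of 8 other peroxide and superoxide enzymes tested, 0 were higher and 7 lower in basal cells than in progenitors (29.5% and 26.6% of all genes). Gpx4, which reduces lipid peroxides, was among them (log2 difference −0.97, SE 0.11, adjusted p = 9.71e-07). Gpx1, the cytosolic glutathione peroxidase, was highest in hormone-sensing cells (log2 difference −1.48, SE 0.11, adjusted p = 1.62e-08 for basal minus hormone-sensing). Gpx3 was left off the list because it served to define the hormone-sensing class. Of 20 other heat shock pathway genes, 10 were higher and 2 lower in basal cells than in progenitors (29.5% and 26.6% of all genes), and 11 were higher and 1 lower than in hormone-sensing cells (32.4% and 27.3%). Serpinh1, the collagen chaperone Hsp47, was at 1204, 1109, 883 and 954 CPM in basal cells, 100.04, 115, 94.0 and 83.4 CPM in progenitors and 108, 53.5, 63.1 and 51.6 CPM in hormone-sensing cells. Each basal library stood far above the luminal ones (log2 difference 3.13, SE 0.15, adjusted p = 6.63e-11 for basal minus progenitor). Hsf1 passed in no class comparison (log2 differences 0.32, 0.14 and −0.18). Of 6 other metal and iron genes tested, 3 were higher and 1 lower in basal cells than in progenitors (29.5% and 26.6% of all genes).

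The series asks what follows when Tfap2c is deleted from basal cells, and in the main treatment fit no member passed in any class. In basal cells, 0 of 36 members and 0 of 10788 genes (0%) passed by edgeR's quasi-likelihood test with no block, 2 libraries against 2. At an unadjusted p under 0.05 stood 465 genes (4.31%), among which 8 members were lower in the 4OHT-labelled libraries (background 2.18%) and 1 higher (2.13%). The list was chosen with earlier results of these data known, so such shares of members, here and below, are descriptions. The members' median log2 difference was −0.16, against −0.02 over all genes, with 25 of 36 below 0. In luminal progenitors, 0 of 36 members passed and 0 of 10120 genes (0%). At an unadjusted p under 0.05 were 166 genes (1.64%) and 0 members. In hormone-sensing cells 0 of 34 tested members and 1 of 7589 genes (0.0132%) passed, with 240 genes (3.16%) at an unadjusted p under 0.05. With DESeq2, no member passed in any class, and 38, 1 and 7 genes did so in all. Other settings did call members. In basal cells 7 members passed as lower, among 167 genes, where the library number was a block, although no label ties equal numbers together. With no filter on low counts Cryab passed as higher in hormone-sensing cells, among 59 of 14906 genes. These p-values measure the spread between single mice.

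The 8 members lower in basal cells at an unadjusted p were antioxidant genes: Mgst1, Cbr3, Gclc, Gclm, Hmox1, Nqo1, Gsta4 and Gstm1. Mgst1, at 211, 211, 100.05 and 108 CPM, had a log2 difference of −0.97, SE 0.23, adjusted p = 0.914, and its corn oil libraries differed by far less than the groups did. Gclm, at 283, 343, 173 and 168 CPM, differed by log2 −0.84, SE 0.23, adjusted p = 1.00, and Hmox1, whose basal values are given above, by −0.82, SE 0.23, adjusted p = 1.00. Both 4OHT-labelled libraries lay below both corn oil libraries for these 3 genes. Gclc (log2 difference −0.87, SE 0.26, adjusted p = 1.00), Cbr3 (log2 difference −0.96, SE 0.32, adjusted p = 1.00) and Nqo1 (log2 difference −1.05, SE 0.33, adjusted p = 1.00) were ordered likewise. In all, 14 of 36 members had both 4OHT-labelled basal libraries below both corn oil ones, against a background of 17.6%; besides those 8 they were Gsto1, Txn1, Prdx1, Prdx6, Fth1 and Ftl1. Cryab, at 209, 153, 281 and 256 CPM, was the member higher at an unadjusted p (log2 difference 0.62, SE 0.23, adjusted p = 1.00), and Cryab and Dnajb1 were the 2 members with both 4OHT-labelled libraries above (background 13%). Mt1 had a log2 difference of 0.38, SE 0.39, adjusted p = 1.00 with overlapping groups, and ran from −0.06 to 0.96 over the 4 fits that each left out 1 library.

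Immediate early genes were also ordered by group in basal cells. Their summed level, over 10 genes known to be induced while tissue is dissociated, was 3881, 4715, 5397 and 6258 CPM in basal cells, with all 10 log2 differences above 0 (median 0.57, 0 passed). The part of cell preparation in the members' differences was not tested. Endothelial markers in basal cells summed to 12.5, 48.9, 9.26 and 56.3 CPM, high in both number 2 libraries and not split by treatment.

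**Figure D3:**
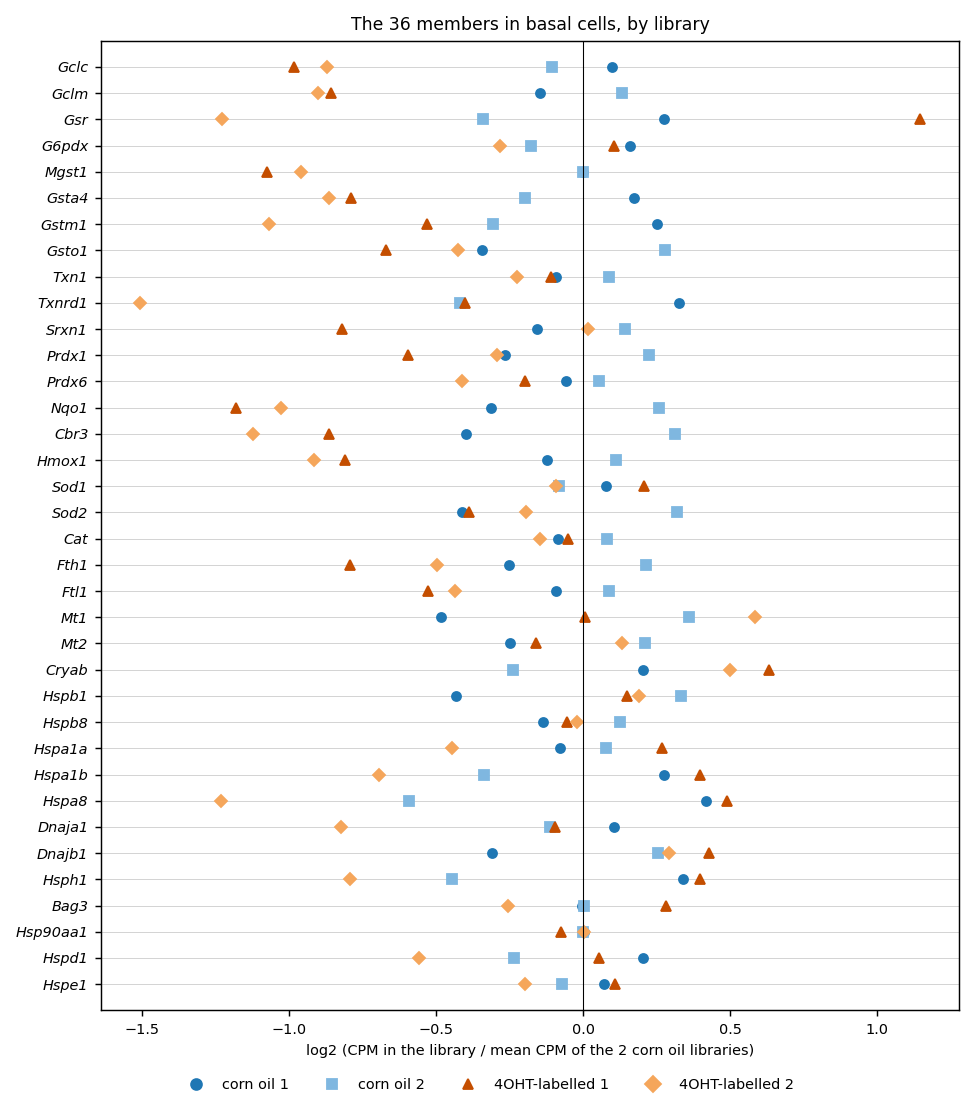
CPM of each of the 36 members in basal cells of each library, as log2 of its ratio to the mean of the 2 corn oil libraries (vertical line at 0), ordered by role. Both 4OHT-labelled libraries lie left of both corn oil libraries for 14 members, 12 of which have antioxidant roles and 2 of which are ferritin chains, and right of them for Cryab and Dnajb1.

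In luminal progenitors the members' median log2 difference between treatments was −0.11. Both 4OHT-labelled libraries lay below both corn oil ones for 8 of 36 members (Gclc, G6pdx, Gsta4, Prdx6, Sod1, Cat, Ftl1 and Bag3; background 17.5%) and above for 0 (7.33%). The members farthest apart, Nqo1 (log2 difference −0.75, SE 0.59, adjusted p = 1.00) and Hspa8 (log2 difference −0.60, SE 0.55, adjusted p = 1.00), had overlapping groups. Without 4OHT 1, Hspa8 passed as lower (adjusted p = 0.017), in a fit that leaves 1 library in the 4OHT-labelled group and takes it to vary as the corn oil libraries do, and its log2 difference ran from −1.45 to 0.41 over the fits without 1 library.

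In hormone-sensing cells both 4OHT-labelled libraries lay above both corn oil ones for 10 of 34 members tested (Mgst1, Gstm1, Txn1, Prdx1, Sod2, Fth1, Cryab, Hspb8, Hspa1a and Hspa1b; background 17%) and below for 2 (Gsta4 and Sod1; 13.5%). Of these 10, Mgst1, Gstm1, Txn1, Prdx1 and Fth1 were ordered the other way in basal cells. Cryab, at 6.17, 9.41, 27.0 and 48.8 CPM, had the widest difference (log2 difference 2.22, SE 0.45, adjusted p = 0.628), and Hspa1a, at 689, 436, 1189 and 1157 CPM, and Mgst1, at 34.7, 47.1, 79.2 and 82.7 CPM, followed (log2 difference 1.04, SE 0.26, adjusted p = 0.9 and 0.93, SE 0.30, adjusted p = 1.00). At an unadjusted p under 0.05, these 3 and Prdx1 were higher (background 1.7%). The Cryab log2 difference was 2.68 without corn oil 2 and 2.58 without 4OHT 1. Without 4OHT 2, that of Dnajb1 was −1.56 and that of Gsta4 −6.86. Gsta4 had 0 UMIs in 4OHT 1, which allows up to 1.93 CPM (3 UMIs). Each of these fits left 1 library in a group, with the spread taken from the other group alone. The class held 151 to 447 cells a library, and fibroblast markers there summed to 243, 51.8, 1344 and 237 CPM, nearly all Dcn in 4OHT 1; their part in these differences was not tested.

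The difference of the treatment effect between classes was tested in one fit of 11998 genes. Between basal cells and progenitors 0 members and 0 genes passed (0%; 494 genes, 4.12%, at an unadjusted p under 0.05), with Mgst1 at a log2 difference of −1.03, SE 0.27, adjusted p = 0.73. Between basal and hormone-sensing cells 0 members passed and 1 gene did (0.00833%; 714 genes, 5.95%, at an unadjusted p under 0.05). There 14 members were lower at an unadjusted p under 0.05 (background 3.46%), led by Mgst1 (log2 difference −1.91, SE 0.30, adjusted p = 0.0524). In fits that left 1 library in a group, the Mgst1 difference passed without corn oil 2 (adjusted p = 0.0267) or 4OHT 2 (0.0144). Cryab differed by log2 −1.64, SE 0.46, adjusted p = 0.478.

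Several members differed more between libraries of a treatment than between treatments. Hspa8 was higher in the number 1 library of both treatments in all 3 classes, by log2 differences of 1.01 and 1.72 in basal cells, 1.51 and 1.52 in progenitors and 1.60 and 1.13 in hormone-sensing cells (corn oil, then 4OHT-labelled). In basal cells the same held for Txnrd1 (0.74 and 1.09), at 141, 84.1, 85.2 and 39.6 CPM, Hsph1 (0.78 and 1.18), Hspa1b (0.61 and 1.08) and Gsr (0.56 and 2.16), and the reverse for Mt1 (−0.84 and −0.58) and Srxn1 (−0.29 and −0.82). Over all 4 libraries, both treatments together, the highest basal library was 3.56 times the lowest for Txnrd1 and 3.30 times for Hspa8. It was 2.70 times the lowest for Cbr3 and 2.50 times for Gstm1. For Txnrd1, Cbr3 and Gstm1 the highest was a corn oil library and the lowest was 4OHT 2. These ratios thus include the difference between treatments. Gstp1, a further glutathione transferase singled out after its values were seen and one with close copies in the genome, was at 95.4, 5.05, 64.5 and 2.88 CPM in basal cells and 55.5, 2.94, 51.5 and 2.76 CPM in hormone-sensing cells, high in both number 1 libraries. Those libraries also had more UMIs per basal cell within each treatment (medians 5152.5 and 3850, against 3172 and 2827.5) and fewer endothelial marker UMIs; their part in these differences was not tested.

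**Figure D4:**
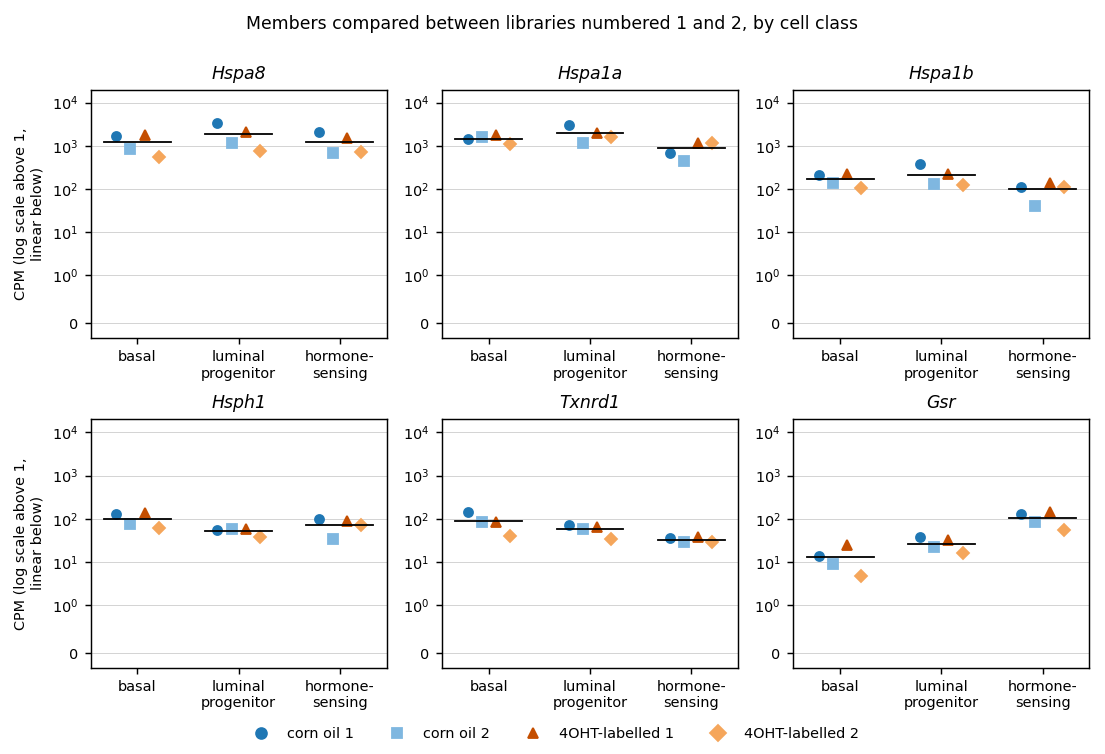
CPM of 6 members in each library (points) by cell class, with number 1 and number 2 libraries marked apart. Hspa8 is higher in the number 1 library of each treatment in all 3 classes, at 1690 and 1774 CPM against 839 and 538 CPM in basal cells.

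Members also varied from cell to cell within a class, some of them together. Cells were thinned to 2000 UMIs, leaving out 34 to 379 basal, 34 to 140 progenitor and 0 to 11 hormone-sensing cells a library, and Pearson's r of log2(count + 1) was taken over cells in each library as a description. The points share a library and sparse counts. Of 630 pairs, 34 reached an r of 0.2 in all 4 libraries in basal cells, 33 in progenitors and 17 in hormone-sensing cells, against a median r over all pairs of 0.0356, 0.0418 and 0.00966. In basal cells these were 25 of 78 pairs of heat shock genes, 8 of 210 pairs of antioxidant genes and Mt1 with Mt2. The antioxidant share there was no higher than that over all pairs. In progenitors they were 19 of 78 heat shock pairs, 13 of 210 antioxidant pairs, a share slightly above that over all pairs, and Mt1 with Mt2. In hormone-sensing cells 15 heat shock pairs, 1 antioxidant pair and Mt1 with Mt2 reached 0.2. In none of the 3 classes did a pair that joined an antioxidant gene to a heat shock gene (0 of 273), or either kind to a metallothionein (0 of 42 and 0 of 26), reach it in all 4 libraries. Some such pairs had a median r over libraries above 0.2. The highest were Mt1 with Hspb1 in basal cells (0.310) and Mgst1 with Hspa1a in progenitors (0.302). The middle pair of those 2 kinds lay at 0.0367 and 0.0314.

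Mt1 and Mt2, whose promoters are printed above, had the highest r of all pairs in basal cells, 0.821, 0.791, 0.771 and 0.808, and r of 0.505, 0.732, 0.628 and 0.685 in progenitors, where both genes were low. Hspa1a and Hspa1b had r of 0.574, 0.514, 0.553 and 0.524 in basal cells and 0.720, 0.696, 0.712 and 0.642 in progenitors, and Hspb1 and Hspa1a had r of 0.678, 0.637, 0.577 and 0.531 in basal cells. Among antioxidant genes the closest were Gclm and Hmox1 (0.456, 0.573, 0.456 and 0.572 in basal cells; 0.493, 0.520, 0.542 and 0.476 in progenitors) and Hmox1 and Ftl1 (0.455, 0.562, 0.443 and 0.534 in basal cells), the latter the 1 antioxidant pair to reach 0.2 in hormone-sensing cells (0.237, 0.230, 0.255 and 0.328). The lowest r in basal cells was between Ftl1 and Hspa1a (−0.331, −0.294, −0.281 and −0.127), with Ftl1 and Hspb1 next (−0.223, −0.220, −0.246 and −0.190).

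The variance over cells relative to the mean, which is near 1 for counting error alone, was high in the same genes. At 2000 UMIs it ran over libraries from 42.7 to 52.0 for Hspb1, 27.8 to 61.9 for Mt1, 24.0 to 38.3 for Hspa1a and 11.5 to 19.0 for Hmox1 in basal cells. For Ftl1 it ran from 5.77 to 9.04, against 20.6 to 46.1 for Fth1. Gsr, a gene of low counts, ran from 0.991 to 1.17. At the same relative spread this ratio is larger for a gene of higher level, so it does not rank genes of unlike level.

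**Figure D5:**
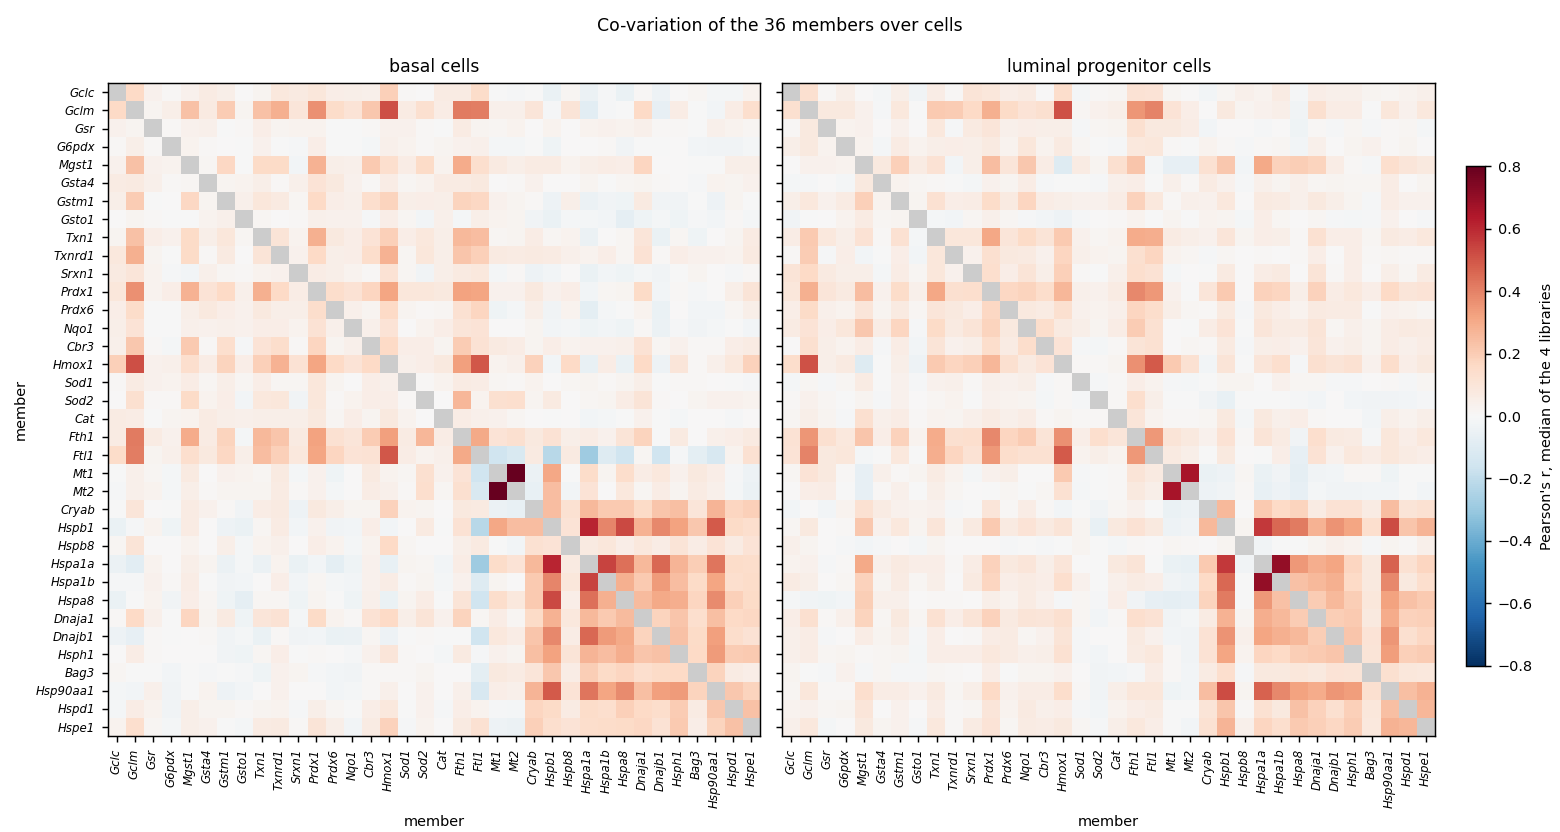
Median over the 4 libraries of Pearson's r between members over cells thinned to 2000 UMIs, in basal cells and luminal progenitors, ordered by role (colour scale; diagonal in grey). Several heat shock genes form a block along the diagonal, and the metallothioneins another, with Mt1 and Mt2 at a median r of 0.80 in basal cells, and Ftl1 with Hspa1a is the lowest pair there (−0.287).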

How the data were processed

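UMI counts per gene and cell were deposited by the authors as filtered matrices, made with bcl2fastq and Cell Ranger 3.0.1 on mm10, per the submitters' processing notes. The 36 members and all gene lists were chosen with earlier results of these data known. Cells with at least 1000 UMIs were classed by raw counts: basal if Krt5, Krt14, Krt17 and Acta2 summed to at least 5 and over 3 times Krt8, Krt18 and Krt19, luminal if the reverse, and hormone-sensing if Ly6d, Fxyd2 and Gpx3 summed to at least 3 and above Wfdc18, Csn3 and Ltf, otherwise progenitor. No doublet caller was run; the ratio leaves out cells with both keratin programmes. From 18 to 36 cell barcodes were shared by any 2 libraries.

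Counts were summed per library and class and tested with edgeR 4.0.16 (R 4.3.3; filterByExpr, TMM, quasi-likelihood, Benjamini-Hochberg over all genes), with the library as a block between classes. Tested alternatives were DESeq2 1.42.0, no filter, stricter classes or cell limits, no library block between classes, a replicate block (the library number) between treatments and leaving out each library. On simulated counts with 200 genes changed by log2 2 the treatment test recovered 100% in basal cells (10606 genes, 6 unchanged genes called), 100% in progenitors (9895 genes, 14 called) and 93.5% in hormone-sensing cells (7317 genes, 3 called). The simulation gave all genes the same spread and put no shift between libraries of different number. Treatment changes near log2 1 were not simulated, so these shares do not give the power for the members' differences. Genes named with full values were the widest class differences of at least log2 1, the 3 widest treatment differences in each direction in each class at a mean of at least 20 CPM, the 4 widest basal ratios between libraries and 4 listed pathway genes. Members from the same groups are named beside them. Gene positions are from GENCODE M21 (GRCm38). A p-value from 2 libraries a group covers these animals only, and the exact permutation test of 2 against 2 cannot go below 0.333. In bulk sums of a class, fewer cells with a transcript and fewer transcripts per cell cannot be told apart.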

Additional observations from a re-analysis of the deposited data

How the results depend on the processing

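For the 37 class differences followed for the genes with the widest ones, 404 refits kept direction and call and 3 lost the call, all for Nqo1 between basal cells and progenitors. Smaller class differences of other members lost their call more often. The stricter class rule ended those of Sod2, Cryab, Hspa1a and Hspa1b between basal cells and progenitors, Gsta4 between basal and hormone-sensing cells, and Txn1 and Sod1 between progenitors and hormone-sensing cells. DESeq2 ended those of Nqo1, Cryab, Hspa1a and Hspa1b between basal cells and progenitors. It also ended Mt1 between basal and hormone-sensing cells and Txn1 between progenitors and hormone-sensing cells. Some settings added calls. The stricter class rule added Dnaja1 as higher in basal cells than in either other class, and Hsph1 as higher than in hormone-sensing cells. No filter added Gclc, Gsta4 and Dnaja1 as higher and Hmox1 as lower in basal cells than in progenitors. Against hormone-sensing cells it added Dnaja1, Dnajb1 and Hsph1 as higher. Without the library block, 5 members were lower and 7 higher in basal cells than in progenitors, among 5041 of 11135 genes called in either direction. Between basal and hormone-sensing cells, taking the block out ended the calls of Gsta4, Mt1, Hspa1a and Hspa1b. Between progenitors and hormone-sensing cells it ended those of Txn1 and Hspa8. Between basal cells and progenitors, Txn1, Prdx1, Sod2, Ftl1, Hspa1a, Hspa1b and Hspa8 were no longer called lower in basal cells. Cryab, Dnajb1 and Hsph1 were no longer called higher there. The number lower was 7 to 13 over the fits that left out 1 library. For treatment in basal cells, 7 members passed with the replicate block, all lower, among 167 of 10788 genes in all. They were Mgst1, Hmox1, Gclm, Txnrd1, Nqo1, Gclc and Gstm1. In that fit 14 members were lower at an unadjusted p. The share of all genes at an unadjusted p is not given for the refits, so such member counts have no background beside them. The libraries share only a number: libraries with the same number deviated together (r = 0.559 in basal cells, 0.317 in progenitors, 0.220 in hormone-sensing cells), with 2 pairs a class and no label that ties them. The block gave 0 member calls in the other classes. Leaving out 1 library gave 5 to 7 members lower at an unadjusted p in basal cells, 0 to 1 past the threshold in progenitors (Hspa8) and 0 to 2 in hormone-sensing cells, where no filter gave 1 (Cryab). For the difference of the treatment effect, no filter gave 1 member between basal cells and progenitors (Mgst1), among 39 of 18595 genes. Between basal and hormone-sensing cells it gave 8, among 80 of 18595 genes. There, 1 member (Mgst1) passed with DESeq2 and with a limit on genes and mitochondrial share per cell, and 0 to 2 without 1 library.

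Treatment differences that changed sign over the fits without 1 library were Mt1 in basal cells (−0.056 to 0.96) and Tfap2c there (−0.28 to 0.10). In progenitors they were Nqo1 (−1.45 to 0.67), Hspa8 (−1.45 to 0.41), Hspa1b (−1.07 to 0.48), Hsp90aa1 (−0.00394 to 0.78) and Mt2 (−0.30 to 0.90). In hormone-sensing cells they were Hspa8 (−0.93 to 0.61) and Gsr (−0.99 to 0.34). Mt2 in progenitors was also −0.070 under the stricter class rule and −0.031 without the cells of most UMIs. Spearman's rho in place of Pearson's r left 21 pairs at 0.2 or more in all libraries in basal cells, 18 in progenitors and 9 in hormone-sensing cells. The cause of these changes was not tested. Depth limits genes of few UMIs in hormone-sensing cells (1297128 to 2539711 UMIs a library), among them Nqo1, Cbr3 and Gsta4.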
